A study of Homo sapiens with 4 samples.

Results

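The snoRNA host genes outside the ribosomal protein genes are genes that carry small nucleolar RNAs (snoRNAs) in their introns. The set is a fixed list of 32 symbols, 13 non-coding and 19 protein-coding, out of 17782 genes with placed introns in the series. Reads were found over introns of 31 of the 32, and SNHG7 had none. Together the hosts have 544 unique introns with deposited rows of 209481 in all; 144 hold a snoRNA gene of GENCODE 29 on the same strand and 400 do not.

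The tested cells were K562, a human chronic myeloid leukaemia line, with SF3B1 K700E (2 samples, replicates 1 and 2) and with wild-type (WT) SF3B1 (2 samples). The labels give the same doxycycline induction of the modified allele, at 1 µg/ml, for both genotypes, and cells were taken 4 days later. They also list alpha-amanitin, at the same concentration in every sample. Its part in the results was not tested. Nascent RNA bound to chromatin was read by long-read sequencing, and for each intron the authors counted the reads over it and the reads with its splice junction. It is not stated whether the 2 samples of a genotype are separate cultures or share 1 clone, so the spread behind each p-value may be technical only.

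In most human snoRNA hosts the snoRNA is not transcribed from a promoter of its own: it is cut out of the host intron after splicing and debranching of the lariat. Box C/D snoRNAs guide 2′-O-methylation and box H/ACA snoRNAs guide pseudouridylation, mainly of ribosomal RNA. SF3B1 is the U2 snRNP subunit that holds the branch site, and K700E is known for use of cryptic 3′ splice sites upstream of the normal ones.

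The hosts carry 87 annotated snoRNA entries on the host strand, 43 of box C/D type, 36 of box H/ACA type and 8 with no type in their name. Some entries overlap: SNORA17B, SNORA16A and SNORA71B are each entered more than once, and every entry is counted below. Some snoRNAs of the most-read host introns are shown because the splicing of these introns is what the values below describe. Capitals mark the box C core TGATGA within the first 20 bases, box D CTGA within the last 20 bases, or the ACA box within the last 20 bases. SNORA81 (EIF4A2 intron 7, 432 reads over the 4 samples) is not shown, and it had no match to any of these boxes. Sequences are the GENCODE 29 transcripts (GRCh38), 5′ to 3′, with T for U.
SNORD27 (SNHG1 intron 2, chr11:62855012-62855083, minus strand): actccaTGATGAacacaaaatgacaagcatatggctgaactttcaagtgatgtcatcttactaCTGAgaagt
SNORD28 (SNHG1 intron 3, chr11:62854621-62854695, minus strand): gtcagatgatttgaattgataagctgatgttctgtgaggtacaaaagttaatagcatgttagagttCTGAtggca
SNORD14C (HSPA8 intron 5, chr11:123059335-123059422, minus strand): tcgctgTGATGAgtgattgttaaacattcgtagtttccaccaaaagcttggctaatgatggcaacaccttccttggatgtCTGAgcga
SNORA63 (EIF4A2 intron 8, chr3:186787300-186787431, plus strand): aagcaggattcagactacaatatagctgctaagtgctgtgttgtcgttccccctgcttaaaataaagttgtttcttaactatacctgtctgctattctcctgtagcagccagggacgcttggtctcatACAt
RF00092 (EIF4A2 intron 6, SNORA63B in RefSeq, chr3:186786323-186786445, plus strand): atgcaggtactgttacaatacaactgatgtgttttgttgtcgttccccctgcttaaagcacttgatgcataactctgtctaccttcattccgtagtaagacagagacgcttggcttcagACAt

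Only the RNA's own strand was searched. TGATGA was found in 72.1% of the hosts' C/D snoRNAs, against 66.7% of all C/D snoRNAs in GENCODE 29. CTGA was found in 97.7% of the hosts' C/D snoRNAs, against 94.4% of all, and ACA in 88.9% of the hosts' H/ACA snoRNAs, against 91.9% of all. A match is a description of these letters, not a mapped functional box.

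The C/D snoRNAs lay at a short and narrow distance from the 3′ end of their introns. The median was 96 bases, with quartiles of 75 and 188.5 bases. The H/ACA snoRNAs had a median of 268.5 bases, with quartiles of 68 and 529.75 bases. The 3 snoRNAs printed above from SNHG1 and HSPA8 ended 73, 69 and 73 bases from the 3′ end of the intron, SNORA63 47 bases and RF00092 56 bases from it.

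**Figure D1:**
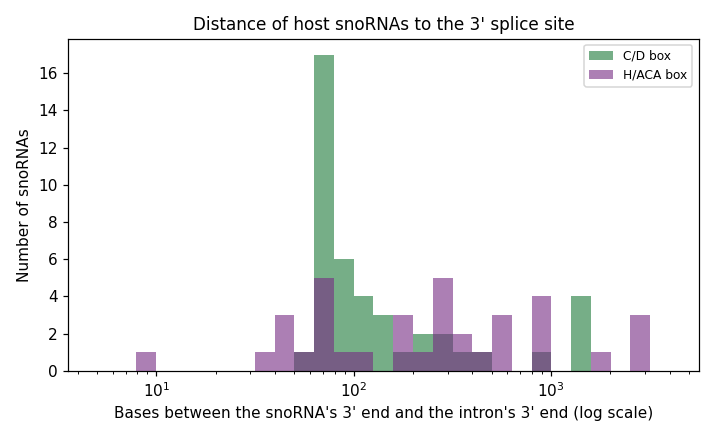
Number of snoRNAs (vertical axis) by the bases between the snoRNA's 3′ end and the 3′ end of its host intron (horizontal axis, log scale), for 43 box C/D and 36 box H/ACA snoRNA entries. The C/D snoRNAs form 1 peak near their median of 96 bases; the H/ACA snoRNAs are spread over the axis.

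GENCODE 29 places no snoRNA gene in GAS5, while RefSeq names one in 16 of its 20 introns. GAS5 introns therefore count as other introns in what follows, unless RefSeq is named.

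Depth differed between libraries. Reads summed over all introns came to 459681 and 909621 in K700E and to 1346733 and 1185006 in WT. Over host introns they came to 2344 and 6713 in K700E, and to 16443 and 7419 in WT. These are 0.510% and 0.738% of all in K700E, and 1.22% and 0.626% in WT, so WT replicate 1 held the most reads and the largest share from hosts. A read can span several introns and is then counted at each. How the authors assigned reads to introns is not stated. Of 33503 pairs of nested introns that share a 5′ site, with lengths at least 100 bases apart, the longer had fewer reads in 17607 and more in 32, as it would where a read must span the intron to be counted. Whether reads that end inside an intron enter its efficiency was not tested. At least 10 reads in every sample were found at 51 host introns in 9 genes, 11 of them holding a snoRNA. In the 3 deeper samples, which leave out K700E replicate 1, 185 host introns in 20 genes had 10 reads or more, 58 of them with a snoRNA. Markers of K562 cells had reads for 7 of 8 genes (KLF1 was at 0), with 786 and 2028 reads in K700E and 3031 and 4048 in WT, most of them over TFRC (730 and 1716 in K700E, 2816 and 3571 in WT). Scaled to the library, these are 1665 and 2180 CPM in K700E, against 2212 and 3342 CPM in WT. The labels call the cells epithelial; 5 of 6 epithelial markers had 24 and 81 reads in K700E and 95 and 60 in WT, and KRT5 was at 0. Of the lymphoid markers, PTPRC, the leukocyte antigen CD45, had 671 and 1328 reads (1421 and 1428 CPM) in K700E, against 523 and 978 reads (381.7 and 807.3 CPM) in WT, so both K700E samples were above both WT samples. CD3E was at 0 in both K700E samples and had 0 and 9 reads in WT. The part of these marker differences in the results on hosts was not tested.

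Splicing efficiency is the number of junction reads at an intron as a percentage of the reads over it. Host introns were spliced at lower levels on chromatin than introns of other genes, in all 4 samples. The mean over the 51 host introns was 27.7% and 27.9% in K700E and 28.8% and 27.0% in WT. Over 6090 introns of all other genes with the same read minimum it was 62.1% and 64.1% in K700E, and 65.8% and 63.9% in WT. The difference was −36.2 ± 1.19 percentage points (SD over 4 samples). The exact two-sided sign-flip test over samples gave p = 0.125, the smallest that 4 samples allow. This comparison was added after the data were seen. Median intron length was 291 bases in hosts and 1274.5 bases elsewhere. Among introns of 200 to 3000 bases the difference was −41.4 points, with median lengths of 343 and 975 bases, and among internal introns it was −37.4 points. Many annotated introns are rarely used alternatives; with 1 intron kept per overlapping group, the most used, hosts averaged 45.5% and 46.6% in K700E and 47.9% and 45.1% in WT, and the difference was −37.4 points.

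Against the ribosomal protein genes, many of which also carry snoRNAs, no such gap was seen in a comparison also added after the data were seen. The 19 ribosomal protein introns with enough reads averaged 21.9% and 18.6% in K700E and 24.4% and 25.5% in WT. Hosts were 5.24 ± 3.23 points higher (exact sign-flip p = 0.125), but 3.59 points lower when the most used of overlapping introns were compared (exact sign-flip p = 0.375).

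The non-coding hosts were spliced less on chromatin than the protein-coding hosts. Over 16 introns of GAS5 (12 of them), SNHG1 and ZFAS1 the mean was 12.8% and 15.5% in K700E and 15.1% and 9.97% in WT. Over 35 introns of 6 protein-coding hosts it was 34.4% and 33.5% in K700E and 35.0% and 34.8% in WT. The difference, also examined after the data were seen, was −21.1 ± 2.88 points (SD over 4 samples; exact sign-flip p = 0.125). With all reads pooled over the most used introns of 12 non-coding and 19 protein-coding hosts, the difference was −37.2 points. With a minimum of 20 reads it was −7.73 points, from 1 non-coding intron against 9, and WT replicate 1 had the opposite sign.

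**Figure D2:**
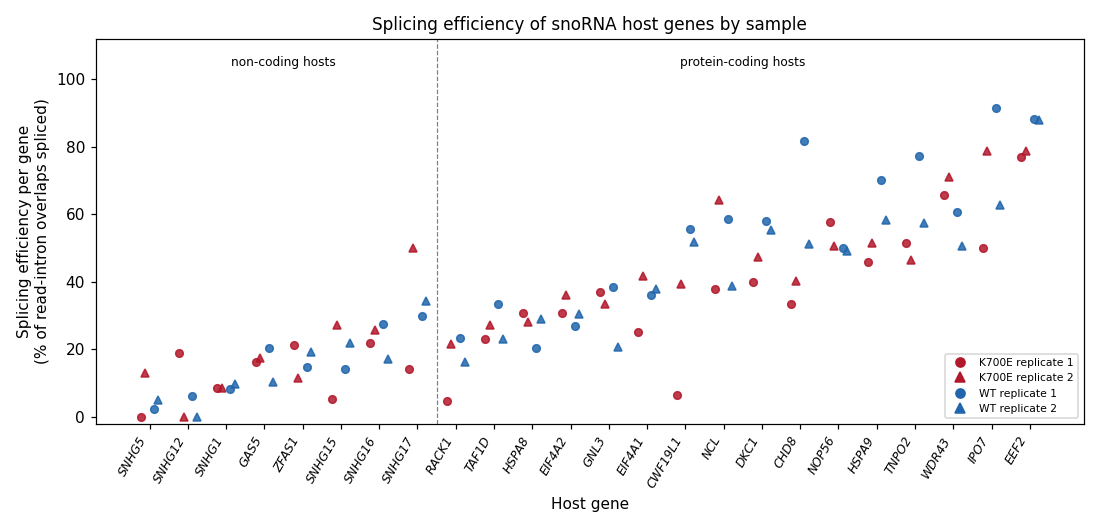
Splicing efficiency per gene (percentage of read-intron overlaps that were spliced, over all annotated introns) for the 24 hosts with at least 10 overlaps in every sample and reads enough for the test. Red points are K700E and blue points WT, circles replicate 1 and triangles replicate 2. The non-coding hosts shown stand left of the dashed line and reach at most 50.0% in a sample, while EEF2 lies between 77.0% and 88.3%. SNHG3, a non-coding host with 9 overlaps in K700E replicate 1, is not shown and reached 89.4% in WT replicate 1.

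SNHG1, the host of SNORD22 and SNORD25 to SNORD31, was among the hosts with the most reads and the least splicing. Its per-gene efficiency was 8.57% and 8.51% in K700E and 8.27% and 9.76% in WT, so the samples lay within 2 points of each other. In its 10-intron transcript, intron 2 (194 bases, SNORD27) had junctions in 0 of 10 and 7 of 48 reads in K700E, against 9 of 293 and 9 of 52 reads in WT. Intron 3 (336 bases, SNORD28) had junctions in 0 of 10 and 7 of 58 reads in K700E, against 9 of 350 and 7 of 57 reads in WT. At both introns replicate 2 of each genotype was between 12.1% and 17.3%, and replicate 1 of each was between 0% and 3.07%, so the genotypes overlapped. Intron 6 of the same transcript (210 bases, SNORD30) was spliced more, at 60% and 22.6% in K700E and 44.8% and 34.5% in WT, on 5 reads in the first of these. A SNHG1 intron of 581 bases that spans both SNORD28 and SNORD27 had junctions in 0 of 7 and 0 of 37 reads in K700E, against 3 of 242 and 0 of 47 reads in WT.

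GAS5, the growth arrest-specific 5′TOP host gene, was spliced more at its first intron than at introns 10 to 12 in every sample. The fall between them was not steady. Intron numbers are those of a 12-intron transcript, except for the first. The first intron (916 bases, SNORD74 in RefSeq) was spliced at 66.7% and 70.3% in K700E and at 84.6% and 56.2% in WT. Its intron 3 (194 bases, SNORD75 in RefSeq) had 70.0% and 55.8% in K700E, against 46.7% and 31.8% in WT, so K700E was higher in both samples. Introns 4 (SNORD76) and 5 (SNORD77) were also higher in both K700E samples: intron 4 had 25.0% and 24.4% in K700E against 13.8% and 4.00% in WT. This order was found at 9.19% of all introns tested, and introns of 1 gene share reads. The smallest edgeR adjusted p of any host intron was 0.985. Further on, intron 6 (SNORD44) had 14.3% and 40.0% in K700E against 49.0% and 28.0% in WT, and intron 7 (SNORD78) 25.0% and 35.2% in K700E against 44.7% and 28.9% in WT. Intron 9 (SNORD80) had 14.3% and 14.7% in K700E against 20.0% and 5.56% in WT. At the 3′ end, intron 10 had no junction in 12 and 40 reads in K700E, against 6 of 45 and 0 of 24 reads in WT. Intron 11 (SNORD47) had none in 12 and 50 reads in K700E, against 4 of 49 and 0 of 28 reads in WT. Intron 12 (SNORD81), the last, had junctions in 0 of 6 and 1 of 38 reads in K700E, against 8 of 28 and 0 of 26 reads in WT. The 95% Wilson upper limits in K700E were 24.2% and 8.76% for intron 10 and 24.2% and 7.13% for intron 11, covering counting error only. The edgeR adjusted p was 0.985 for both, and every junction at introns 10 and 11 came from WT replicate 1. Over the whole gene GAS5 had 16.1% and 17.5% in K700E and 20.5% and 10.4% in WT.

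The other non-coding hosts were shallower. ZFAS1, an antisense host of the SNORD12 group, had 21.2% and 11.5% in K700E and 14.6% and 19.1% in WT, and its SNORD12 intron had 6.67% and 4.76% in K700E against 8.57% and 8.70% in WT. SNHG16 had 22.0% and 25.7% in K700E and 27.6% and 17.1% in WT. SNHG5, host of SNORD50B, had 0% and 13.1% in K700E and 2.28% and 4.88% in WT. SNHG3, the host of the U17 snoRNAs SNORA73A and SNORA73B, split by intron. Per gene it had 22.2% and 63.4% in K700E and 89.4% and 52.0% in WT, on 9 reads in the first of these. Its first intron (2043 bases, SNORA73A) was spliced in 2 of 3 and 39 of 47 reads in K700E, against 193 of 203 and 7 of 9 reads in WT. Its second intron (669 bases, SNORA73B) was spliced in 0 of 6 and 6 of 24 reads in K700E, against 2 of 15 and 6 of 16 reads in WT. Over the 4 samples SNHG12 ranged from 0% to 19.0%, SNHG15 from 5.26% to 27.3% and SNHG17 from 14.3% to 50.0%, and the genotypes overlapped in each. SNHG6, SNHG8 and DANCR had at most 41 reads in any sample.

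EIF4A2, which encodes a DEAD-box translation initiation factor, holds 5 of the snoRNAs, 4 of them in the neighbouring introns 6 to 9, and gave the deepest series of snoRNA introns. Intron 6 (228 bases, chr3:186786274-186786501, RF00092) was spliced at 46.2% and 40.0% in K700E, on 26 and 55 reads, against 27.4% and 29.3% in WT, on 332 and 75 reads. Both K700E samples were above both WT samples, by 14.7 points in the mean, and the edgeR quasi-likelihood test gave an adjusted p = 0.985. Intron 8 (230 bases, SNORA63) had 32% and 35.3% in K700E and 18% and 33.3% in WT. Intron 7 (481 bases, SNORA81) had 54.2% and 39.1% in K700E and 40.1% and 32% in WT. At introns 7 and 8 the genotypes overlapped, and WT replicate 1 was the lowest sample at intron 8. Intron 9 (218 bases, SNORA4) also overlapped, at 42.9% and 36.1% in K700E and 26.2% and 43.9% in WT. Intron 3 (265 bases, SNORD2) ranged most, with 12.5% and 53.8% in K700E against 10.9% and 23.8% in WT; without K700E replicate 1, its p was the smallest of the 139 host introns that could be tested (edgeR adjusted p = 1), and 0 of the 139 passed. A 538-base intron over SNORA63 and SNORA4 had no junction in 17 and 29 reads in K700E or in 148 and 55 reads in WT.

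**Figure D3:**
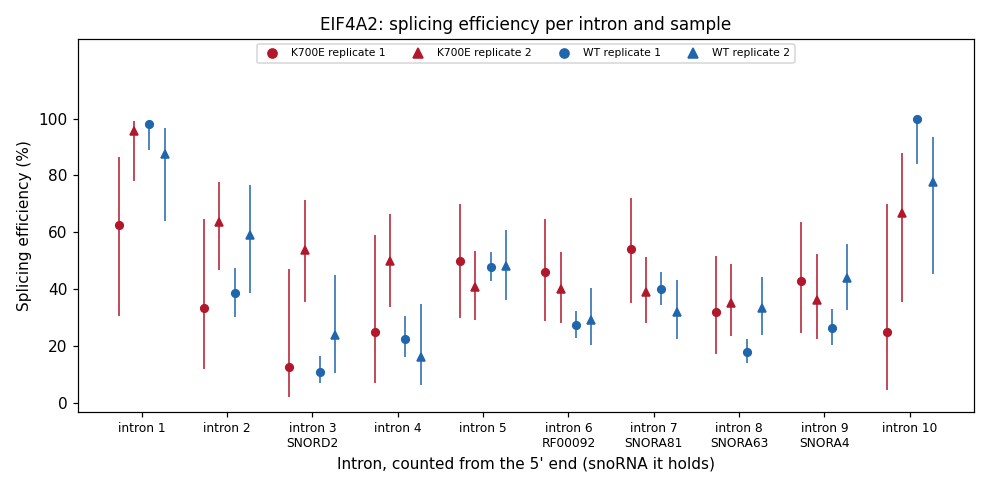
Splicing efficiency (percent, vertical axis) of the 10 introns of 1 EIF4A2 transcript in 5′ to 3′ order, with the snoRNA each holds; bars are 95% Wilson intervals of counting error, red is K700E and blue is WT. Intron 6, with RF00092, has both K700E samples (46.2% and 40.0%) above both WT samples (27.4% and 29.3%); most other introns overlap.

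Near the SNORA63 intron's end lie 2 annotated 3′ splice sites 16 bases apart. They are shown because upstream sites at such distances are what K700E is known for. Capitals mark the AG of each site, on chr3:186787449-186787504, plus strand, read from a retained-intron transcript of GENCODE 29.
EIF4A2 3′ sites: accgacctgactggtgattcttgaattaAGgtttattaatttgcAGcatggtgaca

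The upstream site took 2 of 10 and 1 of 19 junction reads in K700E, against 3 of 59 and 1 of 27 in WT. These are 20.0% and 5.26% in K700E and 5.08% and 3.70% in WT, each K700E value above each WT value. The 95% Wilson bounds for K700E were 5.67 and 51.0% in replicate 1 and 0.935 and 24.6% in replicate 2. For WT they were 1.74 and 13.9% and 0.657 and 18.3%, so a difference was not detectable at this depth. The hosts held 7 annotated site pairs 12 to 40 bases apart with junctions at both sites when the samples are summed. At the others, junctions at the upstream site numbered at most 7 in any sample. In TAF1D (SNORA18 intron, 22 bases apart) the upstream site took 1 of 3 and 2 of 5 in K700E, against 7 of 21 and 0 of 5 in WT. GNL3 (24 bases apart) had the reverse order to EIF4A2, with 0% and 0% upstream in K700E against 5.88% and 12.5% in WT. Each WT value there came from 1 upstream junction. In EIF4A1 the only upstream junction was in WT replicate 1.

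HSPA8, the constitutive HSC70 chaperone and host of SNORD14C, SNORD14D and SNORD14E, was low in 1 WT sample at some introns but not at others. Intron 2 (321 bases, no snoRNA) was spliced at 78.6% and 82.7% in K700E, against 44.0% and 90.2% in WT. Intron 4 (87 bases, no snoRNA) had 76.5% and 63.1% in K700E, against 38.4% and 79.4% in WT. Intron 5 (SNORD14C) had 77.8% and 56.8% in K700E, against 34.1% and 75% in WT. In all 3 introns WT replicate 1 stood apart and WT replicate 2 lay within or above the K700E samples. Intron 6 (SNORD14D) had 5 of 5 and 12 of 21 reads spliced in K700E, against 84 of 289 and 14 of 26 in WT. Introns 3, 7 and 8 differed from this pattern. Intron 3 had 92.9% and 90.0% in K700E, against 87.9% and 92.0% in WT. Intron 7 had 100% (7 reads) and 28.6% in K700E, against 27.9% and 29.4% in WT. Intron 8 (SNORD14E) had 33.3% and 31.0% in K700E, against 29.2% and 20.0% in WT. Intron 2 had the smallest p of any host intron in the edgeR test (adjusted p = 0.985; log2 odds ratio 2.01 ± 0.79 SE), and its sign turned to −1.04 without WT replicate 1. HSPA8 reads numbered 217 and 770 in K700E, against 4074 and 1199 in WT. HSPA8, EIF4A1 and TPT1 have processed pseudogene copies elsewhere, and how reads were placed among the copies is not stated.

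HSPA9, a mitochondrial HSP70 that hosts SNORD63, had several introns with lower values in K700E. Per gene it was 45.8% and 51.4% in K700E, against 70.3% and 58.4% in WT. Intron 7 (291 bases) had 65.5% and 64.0% in K700E, against 97.7% and 69.8% in WT. Intron 5 (1202 bases) had 45.5% and 78.6% in K700E, against 91.3% and 83.3% in WT. Intron 12 (566 bases) had 60% and 40.0% in K700E, against 83.9% and 60.9% in WT. Both K700E samples lay below both WT samples at all 3, an order found at 19.9% of all introns tested, and none of the 3 holds a snoRNA; the edgeR adjusted p was 0.985 for each. The SNORD63 intron had 55.6% and 86.7% in K700E, against 100% and 82.9% in WT, and overlapped. Introns of 1 gene share reads and are not independent of each other.

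EEF2, the translation elongation factor that hosts SNORD37, had the highest efficiency of the 24 tested hosts in the mean over samples, although IPO7 was higher in WT replicate 1 (91.5%). It had 77.0% and 78.8% in K700E, against 88.3% and 88.0% in WT. The groups were 10.2 points apart with SDs of 1.23 and 0.262 points, and the edgeR test over genes gave an adjusted p = 1. CHD8, a chromatin remodeller, had 33.3% and 40.3% in K700E, against 81.8% and 51.3% in WT. It was the host with the smallest p per gene (edgeR adjusted p = 1; log2 odds ratio −1.88, and −0.84 without WT replicate 1). Lower values were seen at CHD8 introns 18 and 19. Intron 18 had junctions in 1 of 4 and 7 of 12 reads in K700E, against 27 of 30 and 11 of 13 reads in WT. Intron 19 had them in 2 of 4 and 8 of 11 reads in K700E, against 23 of 26 and 12 of 14 reads in WT. This order of genotypes was found at 19.9% of all introns tested. Introns 18 and 19 had too few reads in K700E replicate 1 for the test. CHD8 introns 7, 8 and 17 did not separate the genotypes. Intron 7 had 42.9% and 71.4% in K700E, against 91.7% and 54.5% in WT. DKC1, the pseudouridine synthase of H/ACA snoRNPs and itself a host, had 40.0% and 47.2% in K700E, against 58.1% and 55.4% in WT. TNPO2 had 51.5% and 46.6% in K700E, against 77.2% and 57.5% in WT. CWF19L1 had 6.45% and 39.3% in K700E, against 55.7% and 51.9% in WT. CHD8, DKC1, TNPO2 and CWF19L1 each had both K700E samples below both WT samples, an order found in 21.1% of all genes.

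NOP56 and WDR43, nucleolar factors of ribosome assembly, had the opposite order, as did EIF4A2. NOP56, a core protein of C/D snoRNPs, had 57.7% and 50.6% in K700E, against 50.0% and 49.2% in WT. WDR43 had 65.7% and 71.0% in K700E, against 60.6% and 50.5% in WT. EIF4A2 had 30.8% and 36.2% in K700E, against 26.8% and 30.3% in WT. With the most used of overlapping introns, NOP56 had 81.7% and 76.9% in K700E, against 69.4% and 78.4% in WT, and overlapped. WDR43 and EIF4A2 kept their order in that setting. The remaining protein-coding hosts tested (HSPA8, NCL, EIF4A1, GNL3, TAF1D, RACK1 and IPO7) overlapped between genotypes, with NCL for example at 37.7% and 64.1% in K700E and 58.5% and 38.8% in WT. TPT1, PPAN and PRRC2A had too few reads for the test.

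Across the hosts, no intron or gene passed the test between genotypes. In simulated counts with a preset spread between replicates, the intron fit called only 31% of changes of 4 in log2 odds ratio, and 2.00% of changes of 2. Of 37 host introns tested with edgeR, 0 passed an adjusted p of 0.05, beside 0.0982% of all 5093 introns, and 1 had an unadjusted p under 0.05, beside 3.06% of all. Both K700E samples were below both WT samples at 5 of the 37 introns (19.9% of all introns) and above them at 6 (9.19% of all). For efficiency per gene, 0 of 24 hosts passed (0% of 5088 genes), and 1 had an unadjusted p under 0.05 (3.34% of all). Of the 24, 6 hosts were separated downwards (21.1% of all genes) and 3 upwards (10.3% of all). The median difference, K700E minus WT, was −0.50 points in hosts and −2.55 points over all genes; 13 hosts had a negative value and 11 a positive one. DESeq2 and limma also passed 0 of these introns and 0 of these genes. DESeq2 gave 0 introns and 1 gene with an unadjusted p under 0.05, and limma 0 of each.

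Introns that hold a snoRNA were then set against the other introns of the hosts. The 11 snoRNA introns averaged 19.7% and 20.4% in K700E and 17.9% and 18.1% in WT. The 40 others averaged 29.8% and 29.9% in K700E and 31.7% and 29.4% in WT. The difference was −11.2 ± 1.89 points (SD over 4 samples; exact sign-flip p = 0.125) and negative in all 4 samples. The medians of the classes gave 2.36 points instead. Of the 40 others, 12 had no junction in any sample. Restricted to the most used intron of each overlapping group, the difference was −29.4 points, and with RefSeq's snoRNAs added it was −15.2 points. Between genotypes, the snoRNA class was 2.03 points higher in K700E (exact permutation p = 0.333, the smallest that 2 against 2 allow), and the other class 0.705 points lower (exact permutation p = 1). The sizes depended on the read minimum: at 20 reads, with 5 introns in each class and every snoRNA one in EIF4A2, the snoRNA class was 8.16 points higher in K700E and the other class 10.3 points lower (exact permutation p = 0.333 each). The difference between the classes was 2.74 points at 10 reads and 18.5 points at 20 reads.

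Within single hosts the order depended on the gene. Taking the most used introns and pooling reads, 9 hosts had at least 10 reads in both classes in every sample. The snoRNA introns were lower in all 4 samples in 4 hosts (TAF1D, HSPA8, EIF4A1 and NCL), higher in all 4 in NOP56, and mixed in 4. TAF1D holds the largest group of snoRNAs in the set by GENCODE, which places none in GAS5. Its snoRNA introns had 21.3% and 28.1% in K700E and 41.9% and 27.1% in WT. Its other introns had 65.4% and 51.6% in K700E and 59.1% and 44.2% in WT. HSPA8 had 65.2% and 48.3% in its snoRNA introns in K700E and 31.2% and 52.9% in WT, and 85.2% and 75.1% in its others in K700E and 48.5% and 85.9% in WT. NOP56 had 93.3% and 81.7% in its snoRNA introns in K700E and 80.5% and 85.9% in WT, and 78.6% and 74.8% in its others in K700E and 64.2% and 75.3% in WT. The mean over the 9 hosts was −9.98 and −4.56 points in K700E and −4.47 and −11.6 points in WT (exact sign-flip p = 0.125). With all annotated introns of at least 10 reads, 3 hosts could be compared and the mean difference was 8.17 points, of the opposite sign.

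**Figure D4:**
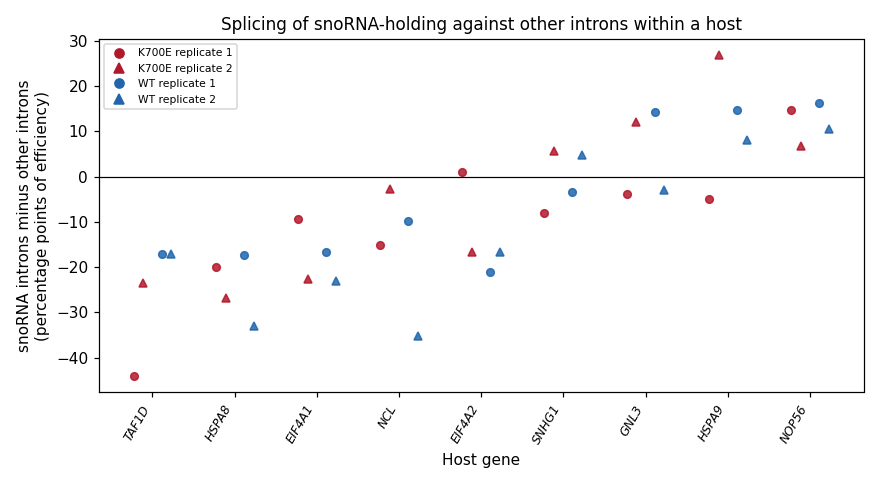
Difference in splicing efficiency, snoRNA introns minus other introns of the same host (percentage points), for 9 hosts with at least 10 reads in both classes in every sample; red is K700E, blue is WT. TAF1D, HSPA8, EIF4A1 and NCL lie below 0 in all 4 samples and NOP56 above 0 in all 4.

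Box C/D and box H/ACA introns did not keep 1 order. The 4 C/D introns averaged 6.67% and 15.5% in K700E and 16.9% and 14.8% in WT, and the 6 H/ACA introns 24.0% and 20.4% in K700E and 17.1% and 18.4% in WT. The C/D introns lay in SNHG1, ZFAS1 and TAF1D and the H/ACA introns in EIF4A2 and TAF1D, so box type and host gene cannot be told apart. The difference was −6.46 ± 7.52 points (exact sign-flip p = 0.125), and −2.84 points without K700E replicate 1. With the most used of overlapping introns it was −22.6 points, from 4 C/D and 3 H/ACA introns. With a minimum of 5 reads it was 4.45 points, over 21 and 14 introns. Read depth was also compared between the classes. In 142 snoRNA introns of 28 hosts, the median log2 ratio of reads to the median of the other introns of the gene was −0.17 and −0.13 in K700E and −0.06 and 0 in WT (exact sign-flip p = 0.25).

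Nascent reads per gene, as CPM of library sizes multiplied by TMM factors, stood apart in WT replicate 1 for several hosts. The factors were 1.12 and 1.05 in K700E and 0.857 and 0.995 in WT, and a lower factor raises the CPM. HSPA8 had 428.5 and 807.8 CPM in K700E, against 3521 and 1021 CPM in WT. SNHG1 had 207.3 and 690.3 CPM in K700E, against 2078 and 471.1 CPM in WT. EIF4A2 had 487.7 and 602.2 CPM in K700E, against 2303 and 578.4 CPM in WT. WT replicate 1 was the highest sample for all 3, and for SNHG5 (73.1 and 136.4 CPM in K700E, against 493.5 and 104.8 CPM in WT). The edgeR log2 fold changes were −1.88 ± 0.67 (SE) for HSPA8 (adjusted p = 0.879), −1.50 for SNHG1 and −1.40 for EIF4A2 (adjusted p = 1 each). Without WT replicate 1 they were −0.73 for HSPA8, −0.07 for SNHG1 and −0.09 for EIF4A2. In bulk samples, fewer cells that transcribe a gene and fewer reads per cell cannot be told apart.

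IPO7, an importin, had 217.2 and 261.2 CPM in K700E, against 772.6 and 401.2 CPM in WT (log2 fold change −1.29, edgeR adjusted p = 0.991; −0.75 without WT replicate 1). DKC1 had 88.9 and 75.5 CPM in K700E, against 148.6 and 166.1 CPM in WT (log2 fold change −0.94, edgeR adjusted p = 1). EEF2 had 120.4 and 103.9 CPM in K700E, against 370.8 and 134.6 CPM in WT. SNHG16 was the host separated upwards, with 81.0 and 73.4 CPM in K700E, against 65.7 and 29.8 CPM in WT. With edgeR 0 of 29 hosts passed (0% of 8611 genes), and 2 had an unadjusted p under 0.05 (4.98% of all); DESeq2 also passed 0, with 4 under 0.05. Of the 29, 5 were separated downwards (EEF2, HSPA8, DKC1, IPO7 and ZFAS1; 16.8% of all genes) and 1 upwards (17.8% of all). The median log2 fold change was −0.34 in hosts, 19 of 29 being negative, and −0.02 over all genes.

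**Figure D5:**
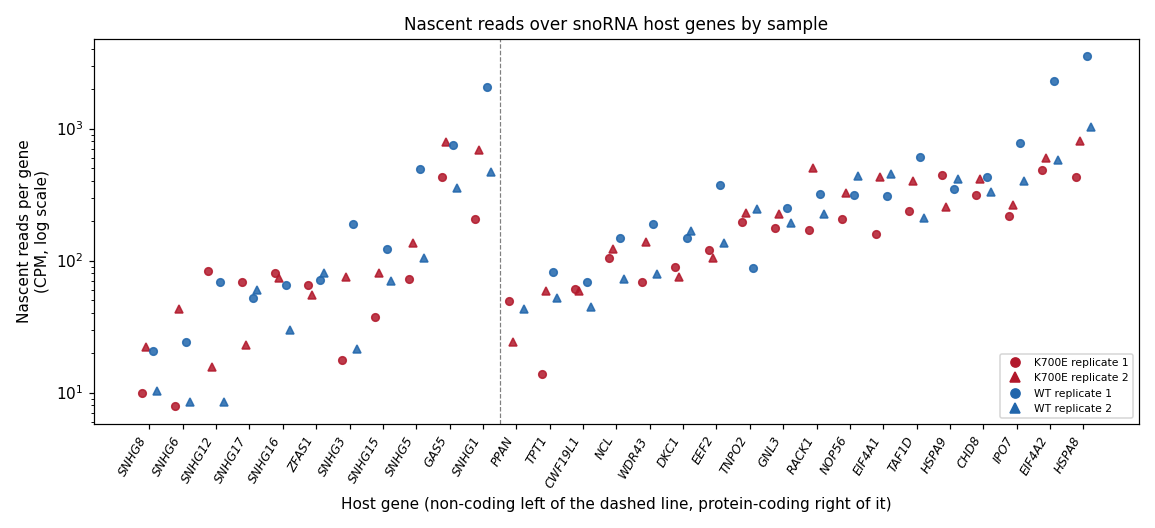
Nascent reads per gene (CPM, log axis) for the 29 hosts tested, K700E in red and WT in blue, circles replicate 1 and triangles replicate 2. WT replicate 1 lies above the other 3 samples for HSPA8, EIF4A2, SNHG1 and SNHG5; PPAN had 0 CPM in WT replicate 1, which a log axis does not show.

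The proteins that assemble and process snoRNPs were examined as a list of 30 genes. Efficiency could be tested in 14, of which 7 had a lower and 7 a higher value in K700E, with a median difference of −0.94 points, against −2.55 points over all genes. With edgeR 0 of the 14 passed (0% of all) and 1 had an unadjusted p under 0.05 (3.34% of all). That gene was SHQ1, an H/ACA assembly factor, with 40.0% and 46.7% in K700E, against 88.2% and 80.0% in WT, on 10 to 17 reads a sample (edgeR adjusted p = 1). The next smallest p-values were those of TGS1, the cap trimethylase, at 45.8% and 70.3% in K700E against 77.0% and 78.9% in WT, and of NOP14, at 91.3% and 79.2% in K700E against 95.9% and 86.4% in WT. Nascent reads could be tested in 23, of which 18 had a higher and 5 a lower value in K700E, with a median log2 fold change of 0.57. Over all 8611 genes 4239 were higher and 4372 lower, with a median of −0.02. With edgeR 0 of the 23 passed (0% of all) and 0 had an unadjusted p under 0.05 (4.98% of all). PARN, a deadenylase that trims H/ACA snoRNA ends, had the smallest p, with 156.0 and 113.3 CPM in K700E against 39.8 and 73.3 CPM in WT (edgeR adjusted p = 1). COIL, the Cajal body protein coilin, had 19.7 and 25.2 CPM in K700E against 6.05 and 5.11 CPM in WT. These rest on 10 and 24 reads in K700E and on 7 and 6 reads in WT. EXOSC10, a nuclear exosome subunit, had 217.2 and 202.5 CPM in K700E against 121.0 and 114.1 CPM in WT.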

How the data were processed

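For each of 4 samples the authors deposited, per annotated intron, 2 raw read counts: reads assigned to it and reads showing its junction; the rule of assignment is not stated. The same deposited table gives their ratio, named CoSE; ratios above 1, in 2.23 to 4.16% of rows, were set to 1. Tools named in the submitters' processing notes are cutadapt and minimap2 on hg38, with versions not given in the sources used here. Per the labels' protocols cDNA was amplified by 15 PCR cycles and no molecular identifiers are mentioned, so intervals cover counting error only. The mutant tables carry in-file replicate labels numbered differently from the sample titles; samples follow the series' records. The deposited tables of RNA 3′ end positions were not used, as their rows name no gene.

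Rows were placed on GENCODE 29 (GRCh38) by transcript, intron number, start and strand (87.3 to 87.6% of rows), and each intron was counted once, with its highest count. Efficiency between genotypes was tested by edgeR 4.0.16 quasi-likelihood fits on spliced and unspliced counts over the whole table, with at least 10 reads in every sample, dispersion 0 for introns and an estimated dispersion for genes; nascent reads were tested with TMM scaling. P-values were Benjamini-Hochberg adjusted over all features. Comparisons of classes used exact two-sided tests over samples. The fits were tested on simulated counts with changes of 4 or 2 in log2 units. The spread between simulated replicates was set in advance, not estimated from these samples, so the rates hold for that spread only. The intron fit called 31% of the changes of 4 and 2.00% of those of 2. With an estimated dispersion it called 0% of each. The gene efficiency fit called 77% and 12%, and the nascent fit 100% and 54.1%. Changes of either size could therefore go uncalled at introns. DESeq2 1.42.0, limma 3.58.1, other minimums, the most used of overlapping introns and leaving out each replicate were alternatives. Introns given in full were the 12 snoRNA introns with the most reads, the 8 with the smallest p and those with the largest separated difference; others were named after their values were seen. Members and lists were chosen with earlier results of these data known. 1 lymphoid marker is not reported here.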

Additional observations from a re-analysis of the deposited data

How the results depend on the processing

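Among the hosts, 0 introns, 0 genes by efficiency and 0 genes by nascent reads passed an adjusted p of 0.05 under every alternative run. Over the whole table the 5 intron calls became 0 with DESeq2 or limma, 2 with an estimated dispersion, 2 in the deeper samples only, 3 with the replicate block, and 0 to 12 when 1 replicate was left out (2 without K700E replicate 1, 0 without K700E replicate 2, 12 without WT replicate 2). The 0 gene efficiency calls became 1 with DESeq2 and 1 with the most used introns. The 0 nascent calls became 23 with DESeq2, 30 with no filter, and 0 to 8 when 1 replicate was left out (8 without WT replicate 1, 3 without WT replicate 2). Samples with the same number did not deviate together (r = −0.166 across 6141 introns), so the block pairs by number only; with the crossed pairing, chosen after seeing the data, the counts were 5 introns, 0 genes and 9 genes by nascent reads.

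Signs turned in these cases, and the cause was not tested. With 1 replicate left out, the log2 odds ratio ranged from −1.04 to 2.50 for HSPA8 intron 2 and from −0.9998 to 1.87 for intron 4, in both cases lowest without WT replicate 1; with the replicate block intron 4 had −0.0316. The SNHG5 nascent log2 fold change ranged from −2.24 to 0.0039, highest without WT replicate 1. The snoRNA minus other difference became 2.36 points with medians and 8.17 points within 3 genes, and ranged from −11.8 to −10.3 points when 1 replicate was left out. Without EIF4A2, which has 6 of the 11 snoRNA introns and was left out after seeing the data, it was −17.8 points; with EIF4A2 and a minimum of 20 reads it was −22.2 points. C/D minus H/ACA became 4.45 points at 5 reads. Hosts minus ribosomal protein genes became −3.59 points with the most used introns. With medians, the genotype difference became −5.73 points in snoRNA introns, 2.77 in other introns and −8.51 between them; at 20 reads it was 8.16, −10.3 and 18.5 points. In other introns it became 1.55 points with pooled reads, and ranged from −1.86 to 0.45 points when 1 replicate was left out. Relative reads over snoRNA introns became 0.0921 (log2) with the most used introns. K700E replicate 1, the shallowest sample, limited the introns that could be tested.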
